A study of Mus musculus with 6 samples.

Results

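The genes described here build and drive mitosis. They are 40 genes of centromeres and kinetochores, the spindle checkpoint, the chromosomal passenger complex, condensin, the anaphase-promoting complex and the spindle, with the mitotic kinases and the transcription factor FOXM1, chosen by gene symbol for their roles. All 40 were among the 19213 genes of the deposited table, and all 40 had enough reads to be tested. The cells were mouse melanoma cells. In 3 samples Spp1, the gene of the secreted phosphoprotein osteopontin, had been knocked out with CRISPR-Cas9, and 3 samples were control cells of a non-targeting genotype, labelled NT. The labels give a different cell line name to every sample, B16F13, B16F14 and B16F15 to knockout replicates 1, 2 and 3 and B16F10, B16F11 and B16F12 to control replicates 1, 2 and 3. Whether these are different cells is not stated, and such a difference could not be told apart from the knockout. The samples are called biological replicates of 1 batch, and no clone, pool or culture is named, so p-values reflect how far these 6 samples vary and may cover technical spread only.

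In mitosis the centromere, marked by a special histone, carries the kinetochore, which holds on to spindle microtubules. The spindle checkpoint keeps the anaphase-promoting complex (APC) inactive until all kinetochores are attached, and the complex then has securin destroyed so that separase can part the sister chromatids. Aurora and polo-like kinases time these steps, condensin compacts the chromosomes, and most genes of the process are switched on late in the cell cycle by the MuvB complex with B-MYB and FOXM1. In proliferating tumour cells such as melanoma these RNAs are abundant. In bulk RNA, fewer cells in mitosis and less RNA per mitotic cell cannot be told apart.

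The late cell cycle promoters share 2 short elements, and the members' promoters were searched for them because most members are late cell cycle genes. The elements are CCAAT, bound by NF-Y, and the cell cycle genes homology region, bound by MuvB through LIN54, here written as TTTGAA or TTCGAA. Windows of 300 bases around a gene's start (250 before, 50 after) were taken from RefSeq on GRCm38.p6 for 33 of the 40 members, some with more than 1 start, in all 39 windows. None was matched for Aurkb, Cdc25c, Foxm1, Incenp, Smc4, Spc24 and Tpx2. The stretches below run from 100 bases before to 30 bases after the start of 2 members that were higher in knockout (Psrc1, Cdc25b) and 2 that were lower (Ttk, Prc1). They were chosen because they hold both elements, as 13 of 19 higher and 2 of 5 lower members with a window did. All are on the plus strand, with both elements in capitals on whichever strand they lie.
Psrc1 (chr3:108383704-108383833): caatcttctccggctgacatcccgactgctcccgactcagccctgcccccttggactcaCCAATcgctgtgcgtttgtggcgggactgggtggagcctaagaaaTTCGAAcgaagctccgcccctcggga
Cdc25b (chr2:131186848-131186977): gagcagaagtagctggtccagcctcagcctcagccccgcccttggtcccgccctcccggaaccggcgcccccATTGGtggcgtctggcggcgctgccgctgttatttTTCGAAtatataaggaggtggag
Ttk (chr9:83834589-83834718): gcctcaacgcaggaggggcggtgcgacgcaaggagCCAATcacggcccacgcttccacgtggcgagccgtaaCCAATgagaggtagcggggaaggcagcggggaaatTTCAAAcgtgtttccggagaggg
Prc1 (chr7:80294351-80294480): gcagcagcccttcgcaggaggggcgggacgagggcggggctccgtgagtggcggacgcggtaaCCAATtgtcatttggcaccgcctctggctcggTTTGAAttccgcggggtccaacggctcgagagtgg
Each of the 4 stretches holds the CCAAT element (read as ATTGG on the other strand in Cdc25b) upstream of the homology region element (read as TTCAAA on the other strand in Ttk). Both elements were found together, on either strand, in 24 of 39 member windows (61.5%), against 7.52% of all 32851 windows of the table. The share with TTTGAA or TTCGAA was 66.7% of member windows and 19.2% of all windows, and the share with CCAAT was 74.4% and 37.4%. Where both occurred, the median distance between the closest pair was 33.5 bases in members and 61 bases in all windows. The E2F-type element TTTCCCGC was in 1 member window (2.56%) and in 1.07% of all windows. Of members that did not pass the test, 6 of 9 held both. A match of letters describes the sequence and does not show binding.

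Values are scaled reads, the reads of a gene divided by the authors' size factor for the library. The libraries held 75438190 to 80206796 reads in knockout and 72717465 to 94314770 in control, so counting error is small for the members, the lowest of which had over 1000 scaled reads in every library. Spp1 had 2, 2 and 4 reads in knockout libraries and 143, 175 and 178 in control libraries. Melanocyte markers were present in every library, with 8 of 8 listed and a summed level of 1096906 to 1107305 scaled reads in knockout and 929998 to 947810.02 in control, mostly Tyrp1, Dct and Pmel. Tyr fell by 0.55 on the log2 scale, and Mitf and Sox10 did not pass the test. Of 8 leukocyte markers 3 were listed, summing to 46.0 to 58.6 scaled reads in knockout and 103 to 120.1 in control, nearly all Cd68. Csf1r and Fcgr3 had too few reads to be tested, and Ptprc, the general leukocyte marker, was not among the listed genes. Of 6 fibroblast markers 3 were listed, at 629 to 729 in knockout and 1461 to 1731 in control, mostly Pdgfrb, and of 5 endothelial markers 2, at 608 to 658 in knockout and 78.9 to 81.4 in control, nearly all Vwf. The part of these shifts in the results below was not tested.

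Of the 40 members 22 rose in knockout, 9 fell and 9 did not pass the test (limma on log2 values, adjusted p under 0.05 over 15307 genes). The groups differed across much of the transcriptome, with 63% of all tested genes past the test, 34.4% higher and 28.6% lower, and the members are well-read genes: among the 8548 tested genes with a mean of at least 1000 scaled reads 48.7% were higher and 27.1% lower. The members' shares, 55% higher and 22.5% lower, lie close to those. The split also rested on the scaling of the libraries. With equal totals, which lower all changes by 0.049 on the log2 scale, 14 members rose and 12 fell (29.2% and 32.9% of all tested genes). With TMM factors 17 rose and 12 fell, and in edgeR and in DESeq2, each on 5 libraries, 12 rose and 12 fell (28.1% and 29.9% of all tested genes in edgeR). Shares of all tested genes with TMM factors and in DESeq2 were not computed. Nor were shares of the well-read genes under any of these alternatives, so the splits have no background of like genes. The median log2 change of the members was 0.085, against 0.025 for all tested genes and 0.087 for those with a mean of at least 1000 scaled reads.

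Most members moved little. The log2 changes ran from -0.66 to 0.45, and 6 of 40 members (15%) changed by at least 1.2-fold, a size reached by 47.3% of all tested genes and 38.7% of those with at least 1000 scaled reads. The 6 were Psrc1, Foxm1 and Aurkb, which rose, and Smc4, Nusap1 and Ttk, which fell. In 21 members all knockout libraries lay above all control libraries and in 12 below, against 36.3% and 30.8% of all tested genes (67.1% together) and 50.1% and 28.6% of those with at least 1000 scaled reads. Psrc1, Foxm1, Aurkb, Smc4 and Nusap1 kept their direction and their call under each of the 18 other ways of processing tried. Against a change of 1.2-fold in place of 0 these same 5 passed, 3 higher and 2 lower, where 10.3% and 14.2% of tested genes did, and Ttk did not (limma adjusted p = 0.0678).

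**Figure D1:**
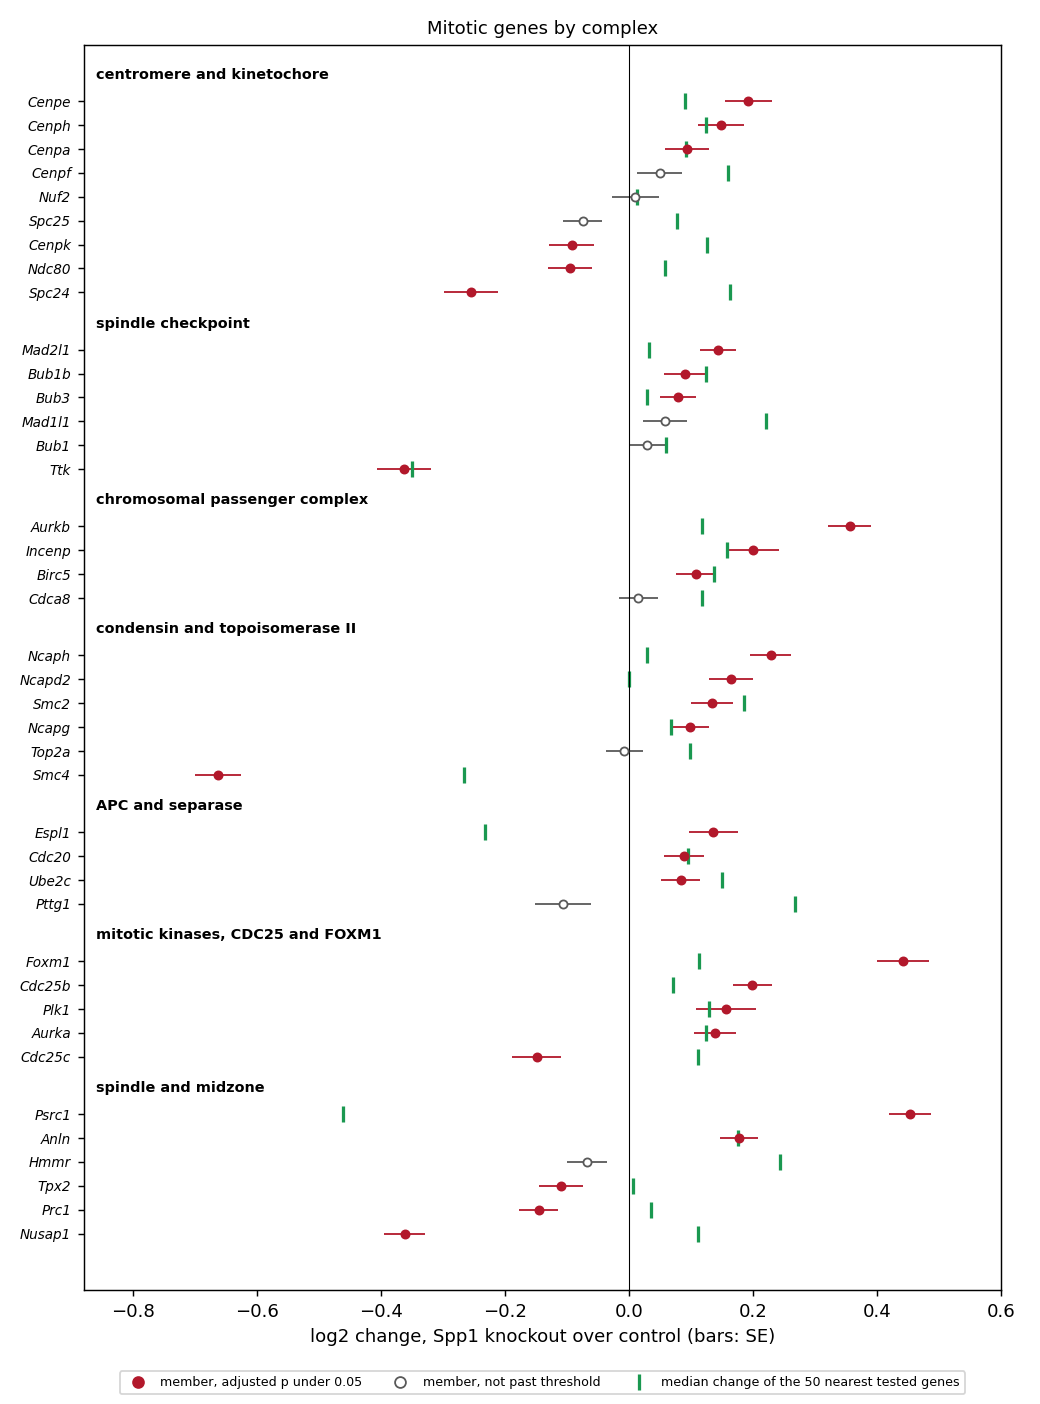
Log2 change of each of the 40 members (horizontal axis, Spp1 knockout over control, bars SE, n = 3 each) grouped by complex, red where the adjusted p was under 0.05 and open where it was not. Green ticks give the median change of the 50 nearest tested genes on the chromosome. Smc4 lies lowest at -0.66 and Psrc1 highest at 0.45, while 32 of the 40 members lie within 0.2 of 0.

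The counts by complex that follow cover 4 to 9 genes each and are given as a description. Of tested genes with at least 1000 scaled reads 48.7% were higher and 27.1% lower. Centromere and kinetochore genes were mixed, with 3 of 9 higher, 3 lower and 3 not past the test. Cenpe, the kinesin that moves chromosomes to the spindle equator, had 12579, 12232 and 12638 scaled reads in the knockout libraries and 10454, 10788 and 11559.6 in the control libraries. Its knockout libraries all lay above its control libraries (log2 change 0.19 ± 0.037 SE, limma adjusted p = 3.16e-04). Cenph, of the inner centromere network, rose by 0.15 on the log2 scale, and Cenpa, the centromeric histone H3 variant, by 0.093. Net of the median change of their 50 nearest tested genes on the chromosome (their neighbours) both calls were lost, with Cenph at 0.024 and Cenpa at 0.00092 (limma adjusted p = 0.606 and 0.985). Cenpk, which binds beside CENP-H in that network, fell by 0.093 on the log2 scale.

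The NDC80 complex, the 4-subunit rod that grips the microtubule, had 2 subunits lower, Spc24 and Ndc80, and 2 not past the test. Spc24, at its centromere-side end, had 2176, 2161 and 1999.8 scaled reads in the knockout libraries and 2536, 2540.2 and 2483 in the control libraries. All knockout libraries were below all control libraries (log2 change -0.26 ± 0.043 SE, limma adjusted p = 8.64e-05). Ndc80, the microtubule-binding subunit, averaged 4525 ± 64.5 scaled reads in knockout and 4838 ± 168 in control (SD, n = 3 each), a log2 change of -0.10. Spc25, the partner of Spc24, had 6133, 6257 and 6201 scaled reads in the knockout libraries and 6435, 6471 and 6683 in the control libraries, without overlap, and missed the threshold (log2 change -0.075 ± 0.032 SE, limma adjusted p = 0.0516). It passed as lower with equal totals and in edgeR (adjusted p = 0.00200 and 0.0104). Nuf2, the partner of Ndc80, and Cenpf, a large protein of the outer kinetochore, stood at 0.0099 and 0.049 and overlapped between the groups. The calls of Cenpa, Cenpk and Ndc80 were lost when single libraries were left out. For Cenpa this was so without knockout 2, knockout 3, control 2 or control 3 (limma adjusted p = 0.0710 to 0.111), for Cenpk without any of the knockouts, control 2 or control 3 (0.0549 to 0.119), and for Ndc80 without knockout 1, knockout 3, control 2 or control 3 (0.0524 to 0.0947). Cenpa also did not pass with equal totals nor Cenph in edgeR (adjusted p = 0.305 and 0.0819), and Cenpf passed as higher without control 3 (adjusted p = 0.0443). Net of its neighbours Cenpf passed as lower, at -0.11 (limma adjusted p = 0.0186).

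In the spindle checkpoint 3 of 6 genes rose, 1 fell and 2 did not pass. Ttk, the MPS1 kinase that starts the checkpoint signal, had 2678, 2820.2 and 2937 scaled reads in the knockout libraries and 3653, 3463 and 3738 in the control libraries. The groups did not overlap, and the mean changed by -22.3% (log2 change -0.36 ± 0.043 SE, limma adjusted p = 2.62e-06). Ttk (ENSMUSG00000038379.15, mm10 chromosome 9, 83834689 to 83872389, plus strand) lies where genes were lower in general, with a median log2 change of -0.35 over the 50 nearest tested genes, and net of that median it stood at -0.013 and did not pass (limma adjusted p = 0.818). Mad2l1, the checkpoint protein that captures CDC20, had 26301, 26615 and 26454 scaled reads in the knockout libraries and 23575, 23894 and 24425 in the control libraries. Every knockout library was higher than every control library (log2 change 0.14 ± 0.029 SE, limma adjusted p = 4.65e-04).

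The other checkpoint genes moved less. Bub1b, the BUBR1 protein of the inhibitory complex, and Bub3, its adaptor, rose by 0.090 and 0.079 on the log2 scale. Neither passed with equal totals (adjusted p = 0.268 and 0.377) or net of neighbours (limma adjusted p = 0.406 and 0.15). Bub1b lost its call without knockout 1, knockout 2, control 1 or control 2 (limma adjusted p = 0.0765 to 0.130) and Bub3 without any of the knockouts or control 2 (0.0605 to 0.110). Mad1l1, which recruits MAD2 to kinetochores, stood at 0.058 and Bub1, a kinase of the centromere and checkpoint, at 0.029, both with overlapping groups. Net of its neighbours Mad1l1 passed as lower, at -0.16 (limma adjusted p = 0.00116). Bub1 averaged 14892 ± 119 scaled reads in knockout and 14594 ± 268 in control (SD, n = 3 each).

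The chromosomal passenger complex, which corrects faulty attachments and later guides cytokinesis, had 3 of 4 genes higher and 0 lower. Its kinase Aurkb had 11336, 11575 and 11160.5 scaled reads in the knockout libraries and 9074, 8471 and 9094 in the control libraries. The knockout libraries all lay above the controls, by 27.9% on average (log2 change 0.36 ± 0.035 SE, limma adjusted p = 3.04e-07). Aurkb (ENSMUSG00000020897.12, mm10 chromosome 11, 69045647 to 69051664, plus strand) was the passenger gene that also passed the test against 1.2-fold (limma adjusted p = 0.0382). Incenp, the scaffold that activates Aurora B, had 10370.5, 10631 and 9687 scaled reads in the knockout libraries and 8761, 8535 and 9439 in the control libraries. All of its knockout libraries lay above its controls (log2 change 0.20 ± 0.043 SE, limma adjusted p = 8.45e-04). Net of its neighbours, with a median of 0.16, Incenp stood at 0.042 and did not pass (limma adjusted p = 0.428). Birc5, or survivin, rose by 0.11 on the log2 scale and did not pass with equal totals or net of neighbours (adjusted p = 0.110 and 0.439). Cdca8, or borealin, had 7814, 8093 and 8029 scaled reads in the knockout libraries and 7929, 7759 and 8012 in the control libraries. Its groups overlapped and it did not pass (log2 change 0.014 ± 0.032 SE, limma adjusted p = 0.716). With equal totals it stood at -0.035, and net of its neighbours it passed as lower at -0.10 (limma adjusted p = 0.0108). The number of passenger genes lower in knockout was also 0 in edgeR and DESeq2 and at an unadjusted p under 0.05 in limma, but not net of neighbours, where Cdca8 was lower. In edgeR Birc5 did not pass (adjusted p = 0.176). Of tested genes with at least 1000 scaled reads 48.7% were higher and 27.1% lower, and 4 genes are few to set against these shares.

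Of the 5 condensin I genes 4 rose and 1 fell, where 48.7% and 27.1% of tested genes with at least 1000 scaled reads did. Smc4 (ENSMUSG00000034349.14, mm10 chromosome 3, 69004738 to 69034623, plus strand), an ATPase subunit shared by both condensins, had 12017, 11960.5 and 12363 scaled reads in the knockout libraries and 18276, 19090.3 and 20233 in the control libraries. The mean changed by -36.9%, with no overlap (log2 change -0.66 ± 0.037 SE, limma adjusted p = 5.86e-10). The 50 nearest tested genes had a median of -0.27, and net of it Smc4 stood at -0.40 (limma adjusted p = 2.53e-07). Smc2, with which SMC4 forms an obligate pair, had 29366, 28396 and 30252 scaled reads in the knockout libraries and 25808, 26809 and 27622 in the control libraries. All of its knockout libraries were higher than its controls (log2 change 0.13 ± 0.034 SE, limma adjusted p = 0.00298). Net of its neighbours, whose median was 0.18, Smc2 stood at -0.051 and did not pass (limma adjusted p = 0.215).

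The other condensin I subunits went with Smc2. Ncaph, the kleisin that closes the ring, had 9387, 9568 and 9399.9 scaled reads in the knockout libraries and 8026, 7842 and 8348 in the control libraries, again without overlap (log2 change 0.23 ± 0.033 SE, limma adjusted p = 1.84e-05). Ncapd2 and Ncapg, its HEAT-repeat subunits, rose by 0.16 and 0.10 on the log2 scale. Ncapg shares 13.4% of its exon length with Lcorl on the other strand and did not pass with equal totals or net of neighbours (adjusted p = 0.164 and 0.397). Top2a, the topoisomerase that untangles sister chromatids and the most abundant member by reads, averaged 56144 ± 1197 scaled reads in knockout and 56444 ± 1009 in control (SD, n = 3 each) (log2 change -0.0077 ± 0.030 SE, limma adjusted p = 0.836). Its groups overlapped.

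**Figure D2:**
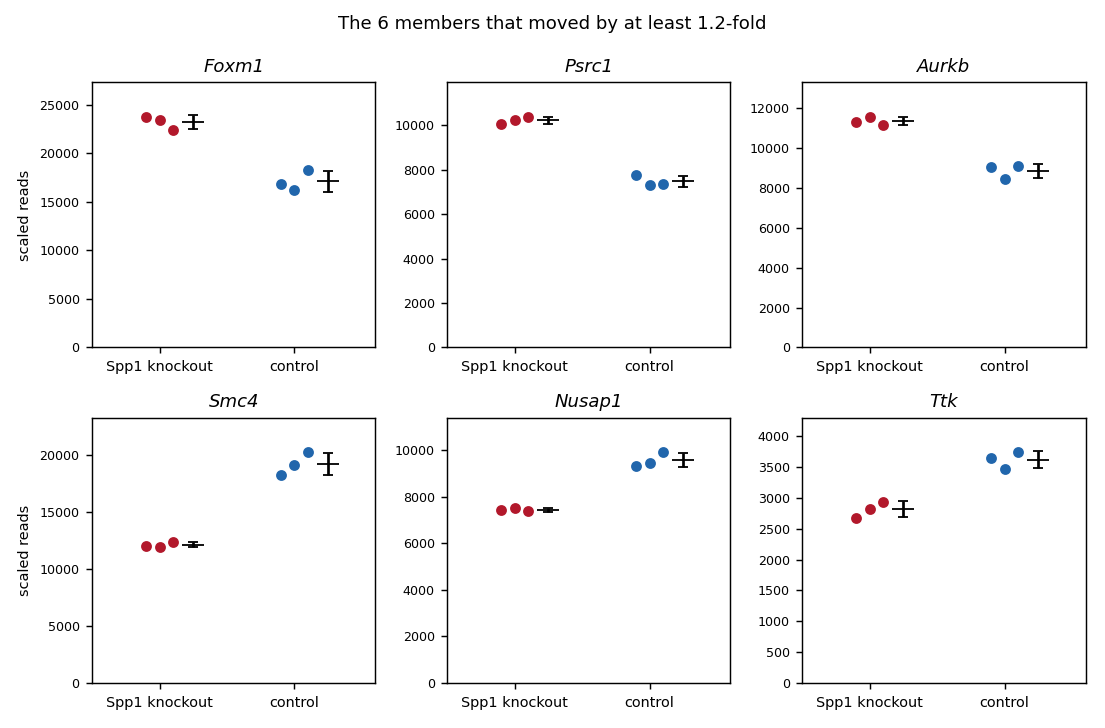
Scaled reads of the 6 members with a change of at least 1.2-fold in each library (points) with the mean and SD of each group (black), Spp1 knockout left of control, n = 3 each, vertical axes from 0. In each panel the groups do not overlap.

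Among the APC activators and the separase pair 3 of 4 genes rose and 1 did not pass, where 48.7% of tested genes with at least 1000 scaled reads rose. Espl1, separase, had 5072, 5359 and 5056 scaled reads in the knockout libraries and 4659, 4519 and 4928 in the control libraries. All knockout libraries were higher (log2 change 0.14 ± 0.040 SE, limma adjusted p = 0.00744), against a median of -0.23 among its 50 nearest tested genes. Pttg1, the securin that holds separase inactive, had 1632, 1734 and 1696 scaled reads in the knockout libraries and 1861, 1855 and 1737 in the control libraries. All knockout libraries were lower, by a narrow margin, and it missed the threshold (log2 change -0.11 ± 0.046 SE, limma adjusted p = 0.0521), but it passed as lower with equal totals and in edgeR (adjusted p = 0.00772 and 0.0161), and without knockout 2 or control 3 (0.0175 to 0.0475). Cdc20, the activator that the checkpoint blocks, and Ube2c, the ubiquitin-conjugating enzyme of the APC, rose by 0.088 and 0.083 on the log2 scale. Espl1, Cdc20 and Ube2c did not pass with equal totals (adjusted p = 0.0517, 0.316 and 0.357). Net of neighbours Cdc20 and Ube2c did not pass (limma adjusted p = 0.869 and 0.0899). Cdc20 lost its call without knockout 2, knockout 3, control 2 or control 3 (limma adjusted p = 0.0567 to 0.100) and Ube2c without knockout 2, knockout 3 or control 2 (0.0693 to 0.146). Ube2c is uncertain because 22.8% of its exon length overlaps Tnnc2 on the other strand and the strand setting of the counting is not given in the sources used here.

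Of the kinases Aurka and Plk1, the phosphatases Cdc25b and Cdc25c, and Foxm1, 4 of 5 rose and 1 fell. The kinases Aurkb (higher), Ttk (lower) and Bub1 (not past the test) are counted with their complexes above. Among tested genes with at least 1000 scaled reads 48.7% rose and 27.1% fell. Foxm1 (ENSMUSG00000001517.14, mm10 chromosome 6, 128362967 to 128376146, plus strand), the factor that activates late cell cycle genes, had 23763, 23494 and 22386 scaled reads in the knockout libraries and 16801, 16216 and 18336 in the control libraries. The knockout mean was 35.6% higher without overlap (log2 change 0.44 ± 0.042 SE, limma adjusted p = 3.18e-07). Cdc25b, a phosphatase that activates CDK1 at mitotic entry, had 6876, 6971 and 6784 scaled reads in the knockout libraries and 5965, 5933 and 6081 in the control libraries. Every knockout library was above every control (log2 change 0.20 ± 0.031 SE, limma adjusted p = 4.96e-05). Its relative Cdc25c had 3479, 3703 and 3770.3 scaled reads in the knockout libraries and 4112, 4108 and 3925 in the control libraries, all knockout libraries being below all controls (log2 change -0.15 ± 0.040 SE, limma adjusted p = 0.00381), with 12.7% of its exon length shared with Gm3550. Aurka, the spindle pole kinase, rose by 0.14 and Plk1, which acts from centrosomes to cytokinesis, by 0.16 on the log2 scale. Net of their neighbours they stood at 0.014 and 0.027 and did not pass (limma adjusted p = 0.750 and 0.654). For Plk1 the lowest knockout library, at 11618 scaled reads, lay below the highest control library, at 11667, and its call was lost in edgeR (adjusted p = 0.152) and without knockout 2 or control 2 (limma adjusted p = 0.0539 to 0.0629). Plk1 reads may be shared, since 10.4% of its 50-base stretches also occur in the pseudogene Plk-ps1 or in Gm44985.

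Spindle and midzone genes moved in both directions, with 2 of 6 higher, 3 lower and 1 not past the test. Psrc1 (ENSMUSG00000068744.12, mm10 chromosome 3, 108383839 to 108388231, plus strand), a microtubule-associated protein of the spindle, had 10059, 10241 and 10382 scaled reads in the knockout libraries and 7774, 7297 and 7356 in the control libraries. The knockout mean was 36.8% higher without overlap (log2 change 0.45 ± 0.034 SE, limma adjusted p = 1.44e-08), and its 50 nearest tested genes had a median of -0.46. Nusap1 (ENSMUSG00000027306.15, mm10 chromosome 2, 119618298 to 119651244, plus strand), which bundles microtubules near chromosomes, had 7418, 7508 and 7364 scaled reads in the knockout libraries and 9319, 9446 and 9898 in the control libraries. All knockout libraries lay below all controls, and the mean changed by -22.2% (log2 change -0.36 ± 0.033 SE, limma adjusted p = 1.27e-07), while its 50 nearest tested genes had a median of 0.11.

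Anln, the anillin scaffold of the cleavage furrow, had 23351, 22888 and 23701 scaled reads in the knockout libraries and 20198, 20569 and 21126 in the control libraries. The groups did not overlap (log2 change 0.18 ± 0.030 SE, limma adjusted p = 1.12e-04). The median of its neighbours was also 0.18, and it did not pass net of them (limma adjusted p = 0.988). Prc1, which crosslinks midzone microtubules, averaged 19572 ± 75.7 scaled reads in knockout and 21664 ± 691 in control (SD, n = 3 each), a log2 change of -0.15, and shares 11.1% of its exon length with Rccd1. Tpx2, the activator of Aurora A, had 17549.6, 17602 and 17384 scaled reads in the knockout libraries and 18398, 18337 and 20031 in the control libraries. The knockout libraries all lay below the controls (log2 change -0.11 ± 0.036 SE, limma adjusted p = 0.0132). Hmmr, a spindle assembly protein also known as RHAMM, had groups that did not overlap but missed the threshold (log2 change -0.068 ± 0.032 SE, limma adjusted p = 0.0730), and passed as lower with equal totals and in edgeR (adjusted p = 0.00288 and 0.0146).

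A ratio between the RNAs of 2 genes in the same library does not depend on the scaling of that library. The ratio of scaled reads per kilobase of exon was taken within each library for 9 pairs of genes whose proteins bind each other. The pairs were chosen after the values were seen and so are given with no test. No protein was measured, and how often other pairs of genes differ between the groups was not computed. The ratio of Smc2 to Smc4 was 2.32, 2.26 and 2.33 in the knockout libraries and 1.34, 1.34 and 1.30 in the control libraries. Every knockout library thus had more Smc2 RNA per Smc4 RNA than any control library, a log2 difference of 0.80. The neighbours of the 2 genes differed in the same direction, with medians of 0.18 for Smc2 and -0.27 for Smc4. Ratios here are not net of neighbours. Aurka over Tpx2, the kinase over its activator, was 1.21 ± 0.0281 in knockout and 1.02 ± 0.0136 in control (SD, n = 3 each). Espl1 over Pttg1, separase over securin, was 0.711, 0.706 and 0.681 in the knockout libraries and 0.572, 0.557 and 0.648 in the control libraries. These ratios were higher in knockout, as was that of Cenph to Cenpk, at 4.01, 4.19 and 4.02 in the knockout libraries and 3.57, 3.40 and 3.38 in the control libraries. The ratio of Aurkb to Incenp averaged 1.63 ± 0.0520 in knockout and 1.47 ± 0.0534 in control, and that of Mad2l1 to Mad1l1 2.44 ± 0.0381 in knockout and 2.30 ± 0.0990 in control (SD, n = 3 each). Within the NDC80 complex both ratios were lower in knockout. Ndc80 over Nuf2 was 0.898, 0.851 and 0.866 in the knockout libraries and 0.944, 0.932 and 0.936 in the control libraries, and Spc24 over Spc25 was 0.422 ± 0.0206 in knockout and 0.478 ± 0.0155 in control (SD, n = 3 each). Bub1b over Bub3 overlapped, at 0.937, 0.942 and 0.919 in the knockout libraries and 0.895, 0.916 and 0.968 in the control libraries.

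**Figure D3:**
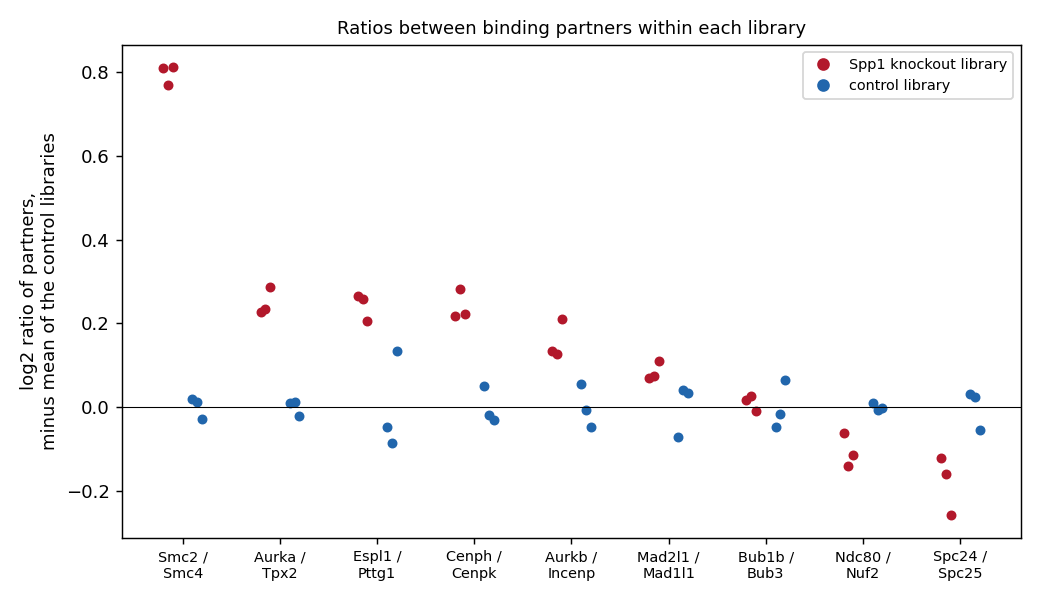
Log2 of the ratio between the RNAs of 2 binding partners in each library (scaled reads per kilobase of exon), minus the mean of the control libraries. The 9 pairs are shown with Spp1 knockout (red) left of control (blue), 3 libraries each. The knockout libraries of Smc2 over Smc4 lie farthest from the control libraries, and those of Bub1b over Bub3 among them.

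Per kilobase of exon the members spanned a wide range of levels in both groups. Top2a had 6229 in knockout and 6262 in control scaled reads per kilobase, Cdc20 5967 in knockout and 5617 in control, Plk1 5537 in knockout and 4973 in control and Smc2 5356 in knockout and 4882 in control. At the low end Cenpk had 525 in knockout and 560.2 in control, Ttk 572 in knockout and 736 in control and Espl1 590.03 in knockout and 537 in control. Exon lengths join the exons of all annotated transcripts, so genes with long alternative ends read low on this scale.

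Within a group, the members often lay on the same side of their mean in 1 library. In knockout 2, 33 of the 40 members lay above their knockout mean, where 59.6% of all tested genes did, and in knockout 1 it was 11 members, against 49.5%. Among the controls 30 members lay above their group mean in control 3 and 8 in control 2, against 55.9% and 41.6% of all tested genes. The mean deviation was at most 0.031 on the log2 scale, in control 3. Without knockout 2 or without control 2 the count of members that rose was 16 in place of 22. The matching shares of all tested genes were not computed.

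Genes near each other changed alike in part. The median change of the 50 nearest tested genes ran from -0.46 (Psrc1) to 0.27 (Pttg1) over the members. Of the 40 members 26 had the same sign as that median, a share close to that of all tested genes (9763 of 15235). Net of it 9 members were higher and 15 lower, where 29.8% and 27.9% of the genes tested in this way were, and the median of the members was -0.021. The neighbours' median was subtracted as a fixed number, so calls and p-values net of it leave out its own spread. In all, 14 calls were lost, those of Ttk, which fell, and of Anln, Aurka, Birc5, Bub1b, Bub3, Cdc20, Cenpa, Cenph, Incenp, Ncapg, Plk1, Smc2 and Ube2c, which rose. Of these Birc5, Bub1b, Cdc20, Smc2 and Ube2c stood below 0, at -0.0071 to -0.066. Another 7 calls were gained, all as lower, those of Cdca8, Cenpf, Hmmr, Mad1l1, Pttg1, Spc25 and Top2a. Cenpe and Cdc25b kept their call at 0.10 and 0.13. Cenpk, Ndc80, Spc24 and Cdc25c lay farther below 0 than before, at -0.22, -0.15, -0.42 and -0.26. So did Nusap1, Prc1 and, barely, Tpx2, at -0.47, -0.18 and -0.12. Espl1, Psrc1 and, barely, Ncapd2 lay farther above, at 0.37, 0.91 and 0.17. Over the 40 members the correlation of a gene's change with that median was 0.13 (Pearson) and 0.032 (Spearman), across genes that share libraries and sometimes segments, against 0.29 and 0.31 over 15235 genes. The 3 members on chromosome 3, Psrc1, Cenpe and Smc4, moved by 0.45, 0.19 and -0.66 where all tested genes of that chromosome had a median of -0.24.

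The wider mitotic machinery, 126 other genes in 8 lists, was mixed as well: 55 rose (43.7%), 29 fell (23.0%) and 42 did not pass, where 34.4% and 28.6% of all tested genes and 48.7% and 27.1% of those with at least 1000 scaled reads rose and fell. With equal totals 42 rose and 39 fell. The median log2 change was 0.063, and 30 of the 126 (23.8%) changed by at least 1.2-fold, against 47.3% of all tested genes and 38.7% of those with at least 1000 scaled reads. The lists below hold 7 to 19 genes each, and their counts are given as a description.

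Among 17 outer kinetochore genes 11 rose and 4 fell. Zw10, of the complex that brings dynein to kinetochores, changed most of all 126 genes, with 11256 ± 264 scaled reads in knockout and 5381 ± 132 in control (SD, n = 3 each) (log2 change 1.06 ± 0.033 SE, limma adjusted p = 1.41e-12), and Clasp1, a microtubule plus-end protein, rose by 0.31 on the log2 scale. Zwint, which links ZW10 to the kinetochore, fell by 0.53 and Pmf1, a MIS12 complex subunit, by 0.29 on the log2 scale. Both lie among lowered genes (neighbours' median -0.58 and -0.29) and did not pass net of them (limma adjusted p = 0.118 and 0.961). Of 19 inner kinetochore and CENP-A loading genes 8 rose and 4 fell. Itgb3bp, or CENP-R, averaged 5259.9 ± 174 scaled reads in knockout and 9657 ± 298 in control (SD, n = 3 each) (log2 change -0.88 ± 0.036 SE, limma adjusted p = 2.46e-11), and Cenpm fell by 0.46, and Cenpt and Cenpu rose, with log2 changes of 0.30 and 0.29. Net of their neighbours Clasp1 stood at 0.17 and Cenpm at -0.28, and both kept their call. Of 7 checkpoint partners 5 rose and 1 fell. Tpr, the nuclear pore protein that tethers MAD1, rose by 0.16 and did not pass net of its neighbours (limma adjusted p = 0.195), Mad2l1bp, or p31comet, rose by 0.15 and Usp44, a deubiquitinase, fell by 0.73 on the log2 scale at a low level, 20.4 ± 6.88 scaled reads in knockout and 33.5 ± 5.80 in control (SD, n = 3 each). Mad2l1bp and Usp44 lost their call in edgeR (adjusted p = 0.104 and 0.112) and net of their neighbours (limma adjusted p = 0.226 and 0.699), and Mad2l1bp with equal totals (adjusted p = 0.122). Mad2l1bp also lost it without knockout 3 or control 2 (limma adjusted p = 0.132 and 0.0933), and Usp44 without knockout 2 or control 2 (0.129 and 0.105).

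APC core subunits and regulators were divided, with 5 of 18 higher and 6 lower. Anapc1, the largest subunit, and Cdc23 rose, with log2 changes of 0.31 and 0.25. The small subunits Anapc16 and Anapc13 fell by 0.78 and 0.58, with neighbours' medians of -0.64 and -0.22. Net of neighbours Cdc23, Anapc16 and Anapc13 stood at 0.14, -0.14 and -0.36 and kept their calls. Of 19 condensin II and cohesin genes 7 rose and 3 fell. Pds5b, a cohesin regulator, and Cdca5, or sororin, rose by 0.24 and 0.24, and Ncaph2, the condensin II kleisin, and Smc3, a cohesin ATPase, fell by 0.38 and 0.14 on the log2 scale. Of 17 entry and exit regulators 9 rose and 3 fell. Both kinases that restrain CDK1 were among those that rose, Pkmyt1 at 1879.6 ± 114 scaled reads in knockout and 1006 ± 83.4 in control (SD, n = 3 each) (log2 change 0.90 ± 0.062 SE, limma adjusted p = 8.61e-09) and Wee1 by 0.47 on the log2 scale. Arpp19 and Ensa, which inhibit the phosphatase PP2A-B55 during mitosis, fell by 0.43 and 0.35, Ensa not passing net of its neighbours (limma adjusted p = 0.431). Net of theirs Pkmyt1, Arpp19 and Cdca5 kept their calls at 0.40, -0.18 and 0.15, the neighbours of Pkmyt1 having a median of 0.50.

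Of 13 genes, made up of factors of the DREAM and MuvB complexes and of Rb1, 3 rose, 3 fell and 7 did not pass, Rb1 among the last. MuvB binds the homology region element. Mybl2, the B-MYB factor that joins MuvB before FOXM1, averaged 4798 ± 178 scaled reads in knockout and 3317 ± 182 in control (SD, n = 3 each) (log2 change 0.53 ± 0.043 SE, limma adjusted p = 3.97e-08), and E2f4, a repressor subunit of DREAM, rose by 0.36 on the log2 scale. E2f5, of the same repressor family, and Tfdp2 fell by 0.20 and 0.17, with neighbours' medians of -0.33 and -0.37. Net of these medians both turned to higher and passed (limma adjusted p = 0.0230 and 2.49e-04). Of 16 cytokinesis and cell cycle markers 7 rose and 5 fell. Cit, the citron kinase of the midbody, and Gtse1, a microtubule-associated G2 protein, rose by 0.38 and 0.28 on the log2 scale, and Rhoa, the GTPase of the contractile ring, and Ccna2, cyclin A2, fell by 0.30 and 0.23. Rhoa did not pass net of its neighbours, whose median was -0.36 (limma adjusted p = 0.122), and Ccna2, with a neighbours' median of -0.33, turned to higher and passed (adjusted p = 0.0116). Gtse1 stood at 0.47 net of its neighbours.

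**Figure D4:**
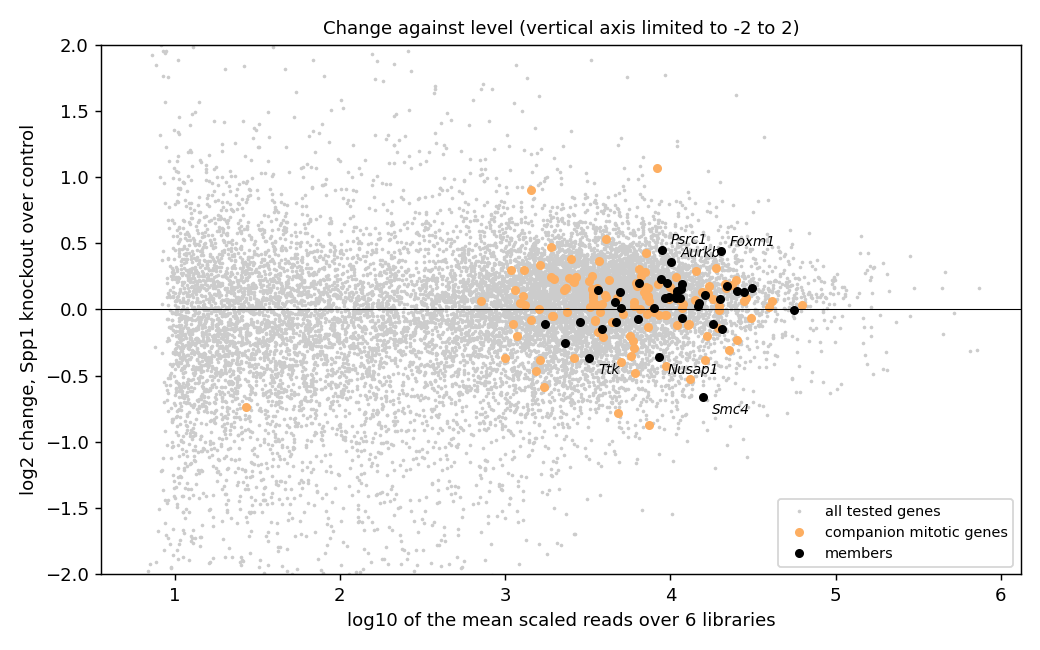
Log2 change (vertical axis, Spp1 knockout over control) against the log10 of the mean scaled reads (horizontal axis) for all 15307 tested genes (grey), the 126 other mitotic genes (orange) and the 40 members (black). The vertical axis stops at -2 and 2, which leaves out 278 genes, and the members lie in a narrow band around 0 at the well-read end.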

How the data were processed

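Paired-end, polyA-selected RNA of 3 Spp1 knockout and 3 control samples was sequenced. The sample titles gave each sample's group and replicate number. The deposited table holds signal values, the reads of each gene divided by a size factor that the authors computed with DESeq, per the labels' series design. Of tools, the submitters' processing notes list STAR 2.5.0a, cutadapt 1.6, DESeq and HTSeq 0.5.3, and of builds mm10, with no role or order. For the annotation and the strand setting the sources used here say nothing, so a gene and an overlapping gene on the other strand cannot be told apart. Every column was a whole multiple of its smallest value within 0.001 reads, which gave the reads of each library. In the column of knockout 2 the worth of 1 read is 0.989 and the recovery was not accepted as certain, so edgeR 4.0.16 and DESeq2 1.42.0 were run on the other 5 libraries. The depth and Spp1 reads of knockout 2 rest on that smallest value.

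Values were transformed to log2(value + 1), and 15307 genes with at least 10 scaled reads in at least 3 libraries were tested two-sided in limma 3.58.1 under R 4.3.3. Its variance estimate was robust and trended, and p-values were adjusted over all tested genes (Benjamini-Hochberg). With 3 libraries against 3, the smallest exact permutation p is 0.1. The limma step was tested on simulated data. A change net of neighbours is the log2 change minus the median change of the 50 nearest tested genes, 25 on each side. That median was taken off the knockout values as a fixed number before the test. The p-values net of neighbours thus measure the spread of the gene's own libraries and not the error of the median. Gene positions and exon lengths came from GENCODE M21, which matched 19121 of 19213 genes. Each complex is described through its members with the largest and smallest change and others by change and call, and each list of other genes through up to 2 higher and 2 lower genes with the largest change. The members and lists were chosen with earlier results of these data known, and so no test is made over a list. Replicates of a group differed by more than counting noise, at 6.27 to 18.7 chi-square units per degree of freedom. Alternatives were other pseudocounts (0.5, 5), filters, scalings, tests, a replicate block and leaving out each library. No protein sequences were used here.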

Additional observations from a re-analysis of the deposited data

How the results depend on the processing

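Other pseudocounts, no filter and a minimum of 50 scaled reads kept the 22 members higher, and that minimum gave 11 lower in place of 9. Fewer than 22 were higher with equal totals (14), with TMM factors (17) and in edgeR and DESeq2 on 5 libraries (12 each). The same held net of the neighbours' median (9, with 15 lower) and against a change of 1.2-fold (3, with 2 lower). Of the 126 other mitotic genes 6 were higher and 11 lower against 1.2-fold. With each library left out in turn, 16 to 21 members were higher and 7 to 9 lower, and 48 to 62 of the other genes were higher and 27 to 31 lower. Without trend and robust estimation 15 members were higher and 7 lower. Among the alternatives, shares of all tested genes were computed only for equal totals, edgeR, the neighbours' median and 1.2-fold. For the others a lower count of members may go with fewer calls over all genes. The replicate numbers did not pair the samples (correlation of deviations -0.11, -0.24 and -0.038 for numbers 1, 2 and 3), and with the replicate block 17 members were higher and 7 lower. The causes were not tested. Log2 changes turned sign with equal totals for Bub1 (-0.020), Cdca8 (-0.035), Cenpf (-0.00043) and Nuf2 (-0.039), and with TMM factors for Cdca8 (-0.0060) and Nuf2 (-0.010). Net of neighbours they did so for Birc5 (-0.029), Bub1 (-0.029), Bub1b (-0.034), Cdc20 (-0.0071), Cdca8 (-0.10), Cenpf (-0.11), Mad1l1 (-0.16), Nuf2 (-0.0024), Smc2 (-0.051) and Ube2c (-0.066). In edgeR this held for Bub1 (-0.0044), Cdca8 (-0.032) and Nuf2 (-0.054), and in DESeq2 for Cdca8 (-0.020) and Nuf2 (-0.042). With 1 library left out, Nuf2 ran from -0.017 to 0.038, below 0 without knockout 2 or control 1 (-0.017 and -0.017), and Top2a from -0.020 to 0.0097, above 0 without knockout 1 or control 3 (0.0097 and 0.0066). The 8 calls lost with equal totals were of members with log2 changes of 0.079 to 0.14 as deposited. Counting error was small at this depth.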
